A study of Mus musculus with 2 samples.

Results

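The data are single-cell transcriptomes of mouse pancreatic islets, and the genes described are 10 transcription factors at the centre of the islet endocrine programme: Pdx1, Nkx6-1, Nkx2-2, Neurod1, Pax6, Isl1, Mnx1, Foxa2, Rfx6 and Insm1. They were chosen by symbol from the 22383 features of the count matrices, and all 10 were found. Their unique molecular identifiers (UMIs, tags that mark single captured transcripts) were counted per cell barcode and summed by library and by hormone class. A barcode's class is the largest of insulin (Ins1 plus Ins2), glucagon (Gcg), somatostatin (Sst) and pancreatic polypeptide (Ppy), where that hormone reached 100 UMIs per 10000. Barcodes were kept with more than 2500 detected genes and less than 10% mitochondrial UMIs, and without an upper limit on genes.

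The study asked what the transcriptional co-factors TBL1X and TBL1XR1 do in β-cells. Control mice were Cre-negative littermates, labelled wildtype. The other mice carried Cre recombinase at the endogenous Ins1 locus together with loxP-flanked Tbl1x, which is X-linked, and Tbl1xr1 (labelled TBL/RBKO, written TBL/RβKO here). The study used mostly male mice, and the labels do not give the sex. Cre at Ins1 acts in β-cells, so the α-, δ- and PP-cells of these mice are not targeted by design. A hormone class is not a lineage, however. The study proposes that β-cells without the co-factors lose their identity or change fate. Whether the other classes hold targeted cells was not tested. All mice were 5 weeks old and on a C57BL/6N background, and each group gave 1 library of 150 islets pooled from 4 animals, which had been cultured overnight in medium with serum. With 1 library per group no test between the groups was possible, so every difference below compares these 2 libraries, and all intervals are 95% intervals that cover counting error only.

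The control library held 7067 barcodes, of which 4747 were kept, and the library labelled TBL/RβKO held 5833, of which 4179 were kept. Kept barcodes had a median of 40626 and 27425 UMIs, and 12 barcode sequences were shared between the kept sets. Cre UMIs numbered 0 in the control library and 3247 in the other, but the targeted genes went against the label: in insulin-class barcodes Tbl1x stood at 96.9 CPM (counts scaled to 1000000 UMIs) in the control library and at 351 CPM in the library labelled TBL/RβKO, and Tbl1xr1 at 20.0 and 129 CPM. The Cre counts go with the label. By quantitative PCR, the study reports less mRNA of both targeted genes in knockout than in control islets of this age. The 3′ tags do not show whether the loxP-flanked part of a transcript is present, so the Tbl1x and Tbl1xr1 counts do not check the deletion. Every direction below is therefore that of the library labelled TBL/RβKO.

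Islet endocrine cells arise from Neurog3-expressing progenitors and keep their identity through a small set of DNA-binding proteins that regulate one another and the hormone genes. Homeodomain factors such as Pdx1, Nkx6-1 and Mnx1 are known for β-cell identity, Nkx2-2, Pax6 and Isl1 for several endocrine types, and Neurod1, Insm1, Foxa2 and Rfx6 for endocrine differentiation and function in general. Pdx1 and Neurod1 both bind the insulin promoter, and loss of many of these factors in adult β-cells is known to lower insulin or to let other hormone genes be expressed.

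The members lie on 4 chromosomes of the mouse genome (GRCm39, GENCODE release M39, matched by Ensembl identifier). Pdx1 (chr5:147206769-147212658, plus strand, 2 exons), Nkx6-1 (chr5:101806005-101813077, minus strand, 3 exons) and Mnx1 (chr5:29678032-29683636, minus strand, 3 exons) share chromosome 5. Neurod1 (chr2:79282865-79287294, minus strand), Pax6 (chr2:105499234-105530952, plus strand), Insm1 (chr2:146063841-146066940, plus strand), Nkx2-2 (chr2:147019466-147036163, minus strand) and Foxa2 (chr2:147884797-147889005, minus strand) are on chromosome 2. Rfx6 is at chr10:51553852-51606528 on the plus strand and Isl1 at chr13:116434817-116446235 on the minus strand. Of the Neurod1 span, 4265 bases lie within Cerkl on the same strand, and Pax6 shares 9940 bases with Elp4 on the opposite strand. Whether the counting used strand is not stated in the sources used here, so reads of these pairs may not be fully separated. In the insulin class, Cerkl and Elp4 lay 0.09 and 0.11 above the median gene on the log2 scale described below.

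The 250 bases before the annotated start of the canonical transcript are shown for the 4 factors on which the results turn, Pdx1 and Nkx6-1, which were lower in the insulin class, Neurod1, which was higher, and Mnx1, which differed in the polypeptide class. Each runs 5′ to 3′ on the strand of the gene and ends at the base before the start. Capitals mark TAAT on either strand, the core that many homeodomain proteins bind. The windows are chr5:147206519-147206768 (Pdx1), chr5:101813078-101813327 (Nkx6-1), chr2:79287099-79287348 (Neurod1) and chr5:29683637-29683886 (Mnx1).
Pdx1: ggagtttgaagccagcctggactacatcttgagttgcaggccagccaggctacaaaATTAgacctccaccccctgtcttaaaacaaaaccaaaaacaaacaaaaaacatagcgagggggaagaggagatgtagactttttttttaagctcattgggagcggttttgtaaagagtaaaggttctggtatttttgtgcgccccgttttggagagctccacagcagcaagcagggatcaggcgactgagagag
Nkx6-1: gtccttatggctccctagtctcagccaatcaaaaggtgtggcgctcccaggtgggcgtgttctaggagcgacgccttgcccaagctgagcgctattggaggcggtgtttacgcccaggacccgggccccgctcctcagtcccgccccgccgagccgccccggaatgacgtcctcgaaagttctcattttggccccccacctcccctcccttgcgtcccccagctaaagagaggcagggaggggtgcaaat
Neurod1: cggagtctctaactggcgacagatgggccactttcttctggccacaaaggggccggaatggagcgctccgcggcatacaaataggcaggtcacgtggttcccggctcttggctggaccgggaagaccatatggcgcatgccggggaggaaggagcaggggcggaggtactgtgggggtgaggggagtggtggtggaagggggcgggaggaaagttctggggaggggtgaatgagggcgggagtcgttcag
Mnx1: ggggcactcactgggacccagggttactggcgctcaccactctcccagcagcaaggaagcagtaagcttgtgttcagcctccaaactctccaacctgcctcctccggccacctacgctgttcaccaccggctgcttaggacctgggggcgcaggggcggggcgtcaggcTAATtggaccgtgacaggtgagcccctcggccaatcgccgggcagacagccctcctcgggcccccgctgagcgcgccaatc

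These 4 windows differ in composition. G and C made up 46.8% of the Pdx1 window, 64.0% of Nkx6-1, 63.6% of Neurod1 and 66.4% of Mnx1, against a median of 53.2% over 21757 protein-coding promoters of the same length. The letters TAAT occurred once in the Pdx1 window, 194 bases before the start, and once in the Mnx1 window, 81 bases before the start, and in 7 of the 10 members' windows against 55.1% of all promoters. The E-box letters CANNTG, to which basic helix-loop-helix proteins such as Neurod1 bind, occurred 3 times in the Neurod1 window itself and in 8 of 10 windows, against 64.8% of all promoters. The forkhead letters TGTTTAC were in the Nkx6-1 window alone of the 10, against 2.72% of all promoters, and TATAAA in that of Foxa2 alone, against 11.9%. Such a match describes letters and is no evidence of binding.

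The hormone classes differed in size between the libraries. The insulin class held 2877 control barcodes and 1338 of the library labelled TBL/RβKO, the glucagon class 1284 and 1546, the somatostatin class 223 and 374, and the polypeptide class 259 and 495. In both libraries 8 of 8 β-cell markers reached 10 CPM in the insulin class and 8 of 8 α-cell markers in the glucagon class. The somatostatin class held 4 of 5 δ-cell markers and the polypeptide class 3 of 3 PP markers at that level. These lists include the hormones that set the class, and the level does not separate the classes. In the control glucagon class 7 of 8 β-cell markers also reached it, as did 3 of 3 PP markers in the insulin class of both libraries. The insulin class was itself unlike between libraries: insulin took 49.6% of its UMIs in the control and 27.9% in the other, 49.5% and 76.7% of its barcodes had 6000 or more genes, and 16.3% and 60.8% held a second hormone at 100 or more UMIs per 10000.

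The factors differed in the class where their level was highest, and for several of them that class depended on the scaling, because insulin takes up much of the insulin class. The order is given in CPM of all UMIs and, as a scaling added after values had been seen, in CPM without hormone and mitochondrial UMIs. Pdx1, a master regulator of the pancreas and of β- and δ-cells, stood in the control library at 114 CPM (112 to 115) in the insulin class, 98.7 CPM (90.5 to 107) in the somatostatin class, 33.8 CPM (30.4 to 37.4) in the polypeptide class and 11.4 CPM (10.2 to 12.7) in the glucagon class, a 10.0-fold range. The order changed in the library labelled TBL/RβKO: 96.3 CPM (90.5 to 102) in the somatostatin class, then 81.3 CPM (79.5 to 83.1) in the insulin class, 52.2 CPM (49.2 to 55.4) in the polypeptide class and 13.9 CPM (12.7 to 15.2) in the glucagon class. Without hormone and mitochondrial UMIs the insulin class was highest in both libraries, at 245 and 125 CPM against 118 and 113 CPM in the somatostatin class.

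Nkx6-1, a repressor of other endocrine fates in β-cells, was highest in the insulin class of both libraries, at 189 CPM (187 to 191) and 115 CPM (113 to 117). It was next in the polypeptide class, at 61.3 CPM (56.7 to 66.0) and 85.7 CPM (81.8 to 89.8), and its range over classes was 8.39-fold in the control library and 5.14-fold in the other. Mnx1, which keeps β-cells from taking on δ-cell features, was nearly restricted to the insulin class of the control library, at 15.3 CPM (14.7 to 15.9) there and 0.721 to 0.746 CPM in the other 3 classes, whose intervals overlapped. In the library labelled TBL/RβKO it stood at 15.8 CPM (15.0 to 16.6) in the insulin class and 7.20 CPM (6.10 to 8.44) in the polypeptide class.

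The broader factors had other peaks. Isl1, a LIM-homeodomain factor of all islet types, was highest in the somatostatin class at 389 CPM (372 to 406) and 381 CPM (369 to 393) and lowest in the insulin class at 103 CPM (101 to 104) and 105 CPM (103 to 107). Rfx6, a winged-helix factor that acts downstream of Neurog3, and Insm1, a zinc-finger factor needed for endocrine differentiation, were also highest in the somatostatin class in both libraries, with 312 and 305 CPM for Rfx6 and 150 and 143 CPM for Insm1. Without hormone and mitochondrial UMIs Isl1 and Rfx6 were still highest there, but Insm1 was highest in the insulin class of both libraries, at 249 and 183 CPM. Neurod1, a basic helix-loop-helix activator, and Nkx2-2 peaked in the glucagon class in both, at 237 and 284 CPM for Neurod1 and at 178 and 166 CPM for Nkx2-2. Without hormone and mitochondrial UMIs Nkx2-2 was highest in the insulin class in both libraries, at 257 and 231 CPM, and Neurod1 in the glucagon class of the control library (314 CPM) and the insulin class of the other (382 CPM).

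Pax6, a paired-box factor known to activate the hormone genes of α- and β-cells, had a flat profile, with 1.29-fold between its highest class (somatostatin) and its lowest (insulin) in the control library and 1.27-fold in the other. Without hormone and mitochondrial UMIs its order was reversed in the control library, from 364 CPM in the insulin class to 261 CPM in the somatostatin class (1.39-fold), and neighbouring classes overlapped throughout in the other (1.06-fold). Foxa2, a forkhead pioneer factor, ranged 1.46-fold and 1.36-fold in CPM and 1.25-fold and 1.06-fold without those UMIs. In CPM, the Foxa2 intervals of the glucagon, somatostatin and polypeptide classes overlapped between neighbours in the control library.

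**Figure D1:**
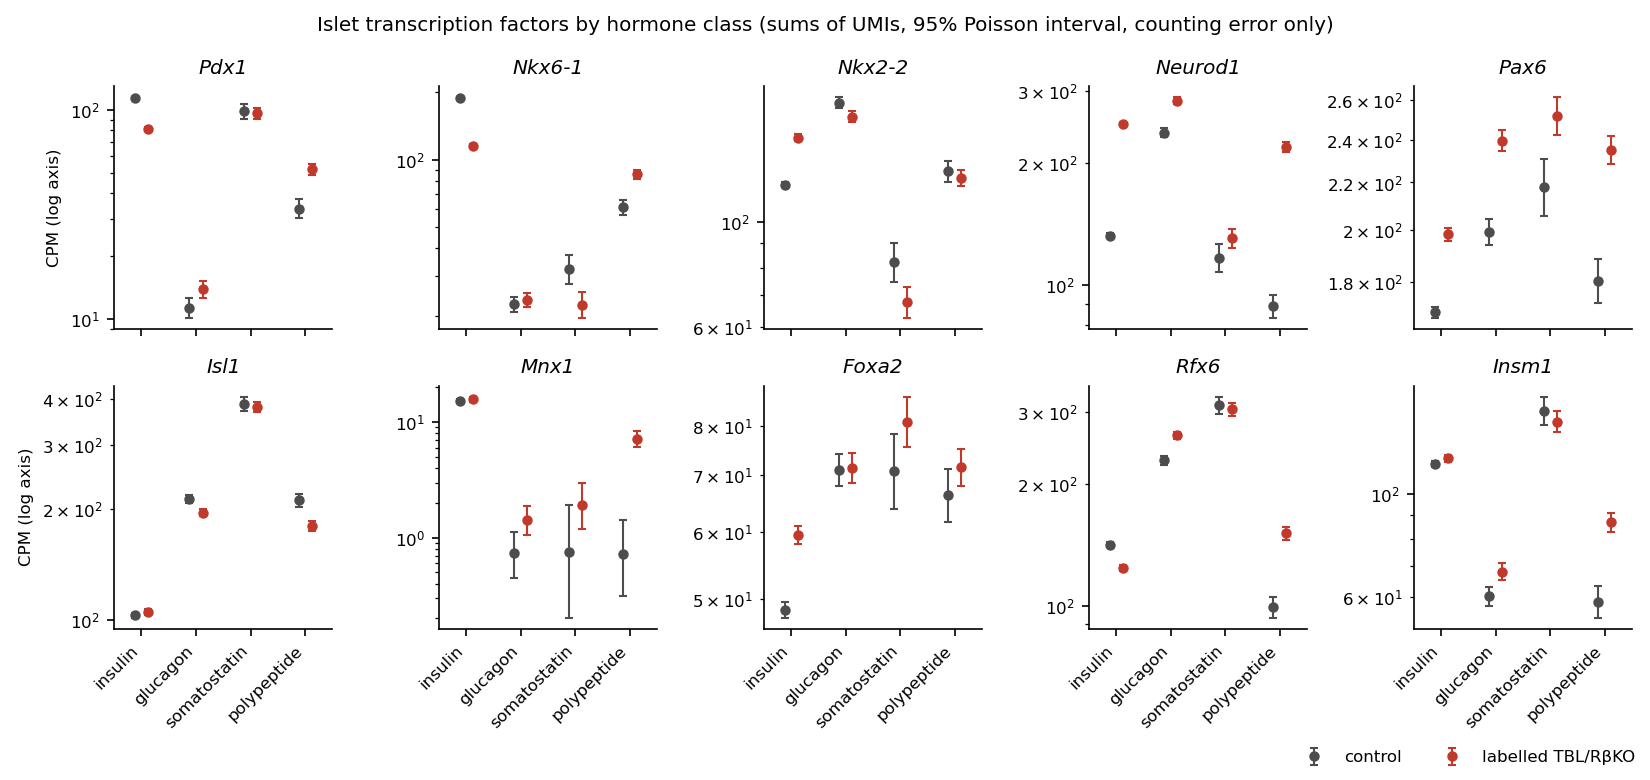
Level of each factor (CPM, log axis, scaled separately per panel) in the 4 hormone classes of the control library (grey) and the library labelled TBL/RβKO (red), with 95% Poisson intervals. Mnx1 lies between 0.721 and 1.93 CPM outside the insulin class except for the polypeptide class of the library labelled TBL/RβKO, at 7.20 CPM.

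To compare the libraries within a class, the log2 ratio of CPM (TBL/RβKO over control) was set against the median log2 ratio of all genes at 10 CPM or more in that class, so that a factor common to all genes cancels. Such a factor was large here: in the insulin class the log2 ratio of the median gene was 0.31 in CPM, -0.19 in CPM without hormone and mitochondrial UMIs, and 0.56 in UMIs per barcode. A gene is called higher or lower when it lay 1.5-fold or more (0.58 on the log2 scale) from the median gene.

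In the insulin class, 2 of the 10 factors were lower, Pdx1 and Nkx6-1, and 1 was higher, Neurod1, where 5.39% of the 7536 genes tested were lower and 9.16% higher. Nkx6-1 had 34350 UMIs and 189 CPM in the control library and 11601 UMIs and 115 CPM in the other, which relative to the median gene is -1.02 (-1.05 to -0.99) on the log2 scale. Pdx1 went from 20749 UMIs and 114 CPM to 8209 UMIs and 81.3 CPM, at -0.79 (-0.83 to -0.76). Both were lower under every scaling, including UMIs per barcode, where Nkx6-1 went from 11.9 to 8.67 and Pdx1 from 7.21 to 6.14.

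Neurod1 went the other way. It had 24110 UMIs and 132 CPM (131 to 134) in the control library and 25087 UMIs and 248 CPM (245 to 252) in the library labelled TBL/RβKO, or 8.38 and 18.7 UMIs per barcode, and lay 0.60 (0.58 to 0.63) above the median gene. This is just past the 1.5-fold limit, with the lower bound of the interval just inside it. Cerkl, whose annotated span on the same strand contains most of Neurod1, stood at 72.5 and 95.2 CPM.

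The other 7 factors lay within 1.5-fold of the median gene. Rfx6, at 141 CPM in the control library and 124 CPM in the other, was lowest among them at -0.50 (-0.53 to -0.47). Isl1 (103 and 105 CPM), Insm1 (116 and 119 CPM) and Mnx1 (15.3 and 15.8 CPM) had nearly equal CPM and therefore lay below the median gene, at -0.28, -0.27 and -0.26. Pax6 (169 and 198 CPM), Foxa2 (48.5 and 59.5 CPM) and Nkx2-2 (120 and 150 CPM) had higher CPM in the library labelled TBL/RβKO, and lay close to the median gene, at -0.08 (-0.11 to -0.05), -0.01 (-0.06 to 0.03) and 0.02 (-0.01 to 0.05). For these 3 genes, and for Isl1, Insm1 and Mnx1, the direction of the plain log2 ratio of CPM turns from positive to negative when hormone and mitochondrial UMIs are left out of the scaling, with -0.26 for Pax6, -0.19 for Foxa2, -0.15 for Nkx2-2, -0.45 for Isl1, -0.44 for Insm1 and -0.44 for Mnx1, while Neurod1 stayed positive at 0.43.

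**Figure D2:**
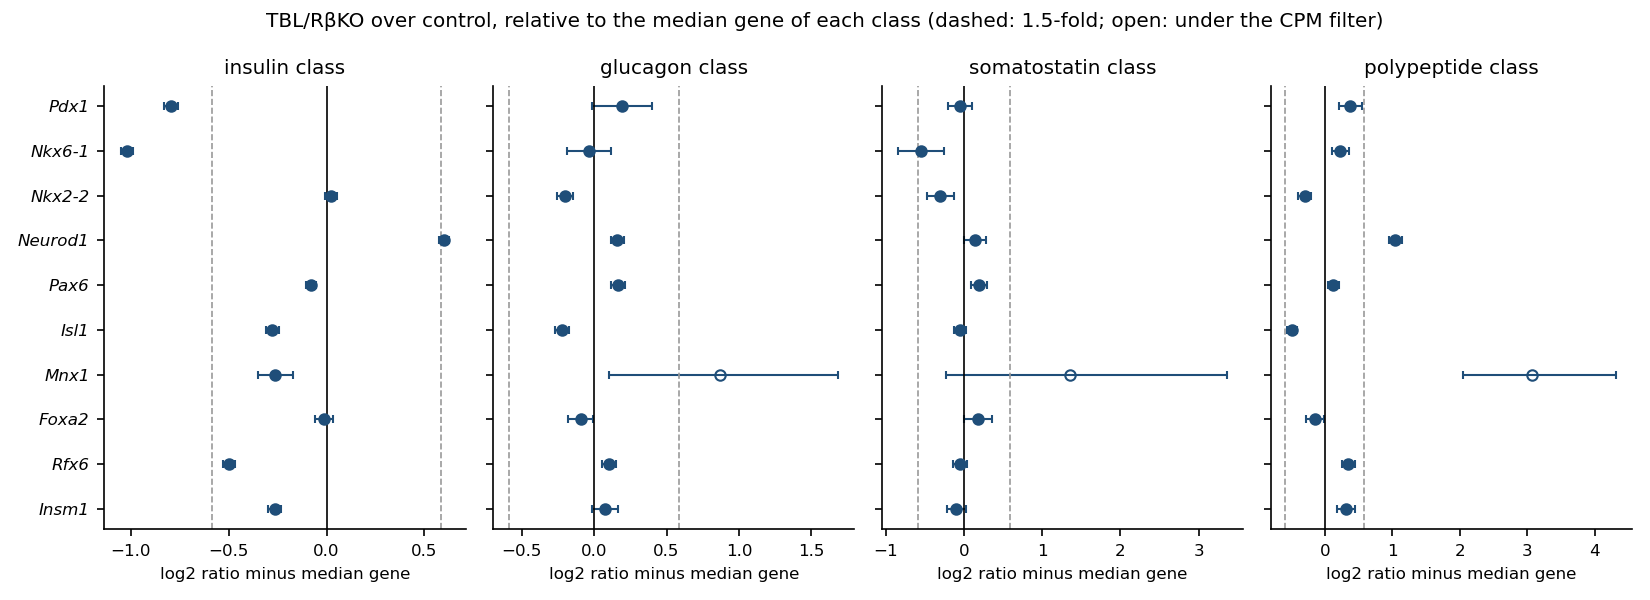
Log2 ratio of CPM, the library labelled TBL/RβKO over the control library, minus that of the median gene of the class, for the 10 factors in the 4 hormone classes (horizontal scales differ), with 95% counting intervals. Dashed lines mark 1.5-fold and open points genes under 10 CPM. In the insulin class Pdx1 and Nkx6-1 lie left of the lower line at -0.79 and -1.02, and Neurod1 lies at the upper line in the insulin class and at 1.05 in the polypeptide class.

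Per barcode, the levels were spread widely within each library. The median Pdx1 level was 1.07 UMIs per 10000 in control insulin-class barcodes, with 0.35 at the 10th percentile and 2.00 at the 90th, and 0.69 (0.14 and 1.61) in the library labelled TBL/RβKO. For Nkx6-1 the median was 1.74 (0.60 and 3.23) against 1.02 (0.29 and 2.26). For Neurod1 it was 1.24 (0.46 and 2.29) against 2.23 (0.79 and 4.76). The spans between these percentiles overlapped between the libraries for each factor.

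A share among the 10 factors does not depend on how a library is scaled. Their summed level in the insulin class was 1147 CPM in the control library and 1216 CPM in the other, from 208987 and 122799 UMIs. Of these, Neurod1 took 11.5% and 20.4% (a difference of 8.89 percentage points) and Nkx6-1 16.4% (16.3 to 16.6) and 9.45% (9.28 to 9.61). Pdx1 took 9.93% (9.80 to 10.1) and 6.68% (6.55 to 6.83). So the factor with the largest share changed, from Nkx6-1 in the control library to Neurod1 in the library labelled TBL/RβKO. Among the rest, Rfx6 went from 12.3% to 10.2%, Nkx2-2 from 10.4% to 12.3% and Pax6 from 14.7% to 16.3%, while Isl1, Mnx1, Foxa2 and Insm1 differed by less than 1.00 percentage point.

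The share of barcodes with a UMI of a factor was compared at equal depth, with each barcode thinned to 5000 UMIs. No barcode was shallower. Barcodes with macrophage, endothelial, stromal or lymphocyte markers served as the background. There were 171 (median 23290 UMIs) in the control library and 282 (median 22032 UMIs) in the other, where insulin-class medians were 53346 and 67897 UMIs. Of these, 94 and 252 were in no hormone class, and the others may hold endocrine cells or doublets. In the insulin class, Pdx1 was found in 43.4% (41.6 to 45.2) of control barcodes and 32.1% (29.6 to 34.6) of the others, over a background of 3.51% and 4.26%, or 1.06% and 1.59% where only marker barcodes in no hormone class were taken. Nkx6-1 was found in 55.9% (54.0 to 57.7) and 42.5% (39.8 to 45.2), over 4.68% and 3.19%, or 3.19% and 0.397%. Neurod1 was found in 46.2% (44.4 to 48.0) and 64.3% (61.7 to 66.9), over 5.85% and 5.32%, or 0% (0 of 94, which allows up to 3.19%) and 2.38%. Without thinning the shares of these 3 factors lay between 91.7% (Pdx1, the library labelled TBL/RβKO) and 98.4% (Neurod1, the same library).

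Thinned instead to 3000 UMIs after hormone and mitochondrial UMIs were taken out, so that insulin does not enter the depth, Pdx1 was found in 51.1% and 29.7% of insulin-class barcodes and Nkx6-1 in 64.8% and 40.5%. Neurod1 stayed more often found, in 54.7% (52.9 to 56.5) and 63.5% (60.9 to 66.1). The other 7 factors also had lower shares in the library labelled TBL/RβKO at this depth (with overlapping intervals for Mnx1), Isl1 in 45.7% and 35.9% and Insm1 in 48.6% and 39.9%, although at 5000 UMIs of all genes only Rfx6 among them had been. The mean number of the 10 factors found per barcode in the insulin class was 4.73 and 3.85 here, and 4.03 and 4.07 at 5000 UMIs of all genes.

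**Figure D3:**
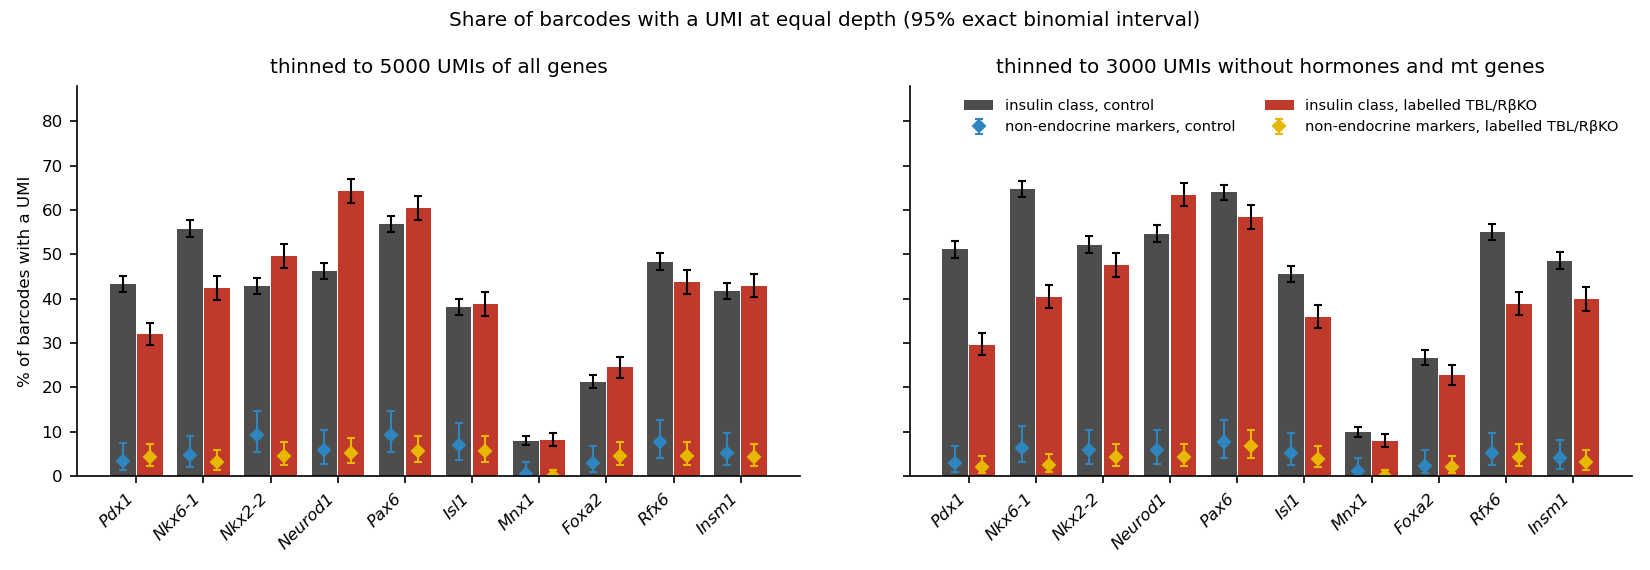
Percent of insulin-class barcodes with a UMI of each factor at equal depth (bars, control grey, labelled TBL/RβKO red, with 95% exact binomial intervals) and the same in barcodes with non-endocrine markers (diamonds), thinned to 5000 UMIs of all genes (left) or 3000 UMIs without hormones and mitochondrial genes (right). Pdx1 and Nkx6-1 are lower and Neurod1 higher in the library labelled TBL/RβKO in both panels.

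Because insulin itself differed, the insulin class was also split into ranges of insulin, which are ranges of 1 measure and not cell types. Control barcodes lay mostly high, with 1532 at 5000 or more insulin UMIs per 10000 and 1100 at 2500 to 5000, and few at 1000 to 2500 (82) or 100 to 1000 (163). The library labelled TBL/RβKO had 141, 495, 459 and 243 barcodes in the same ranges. In the control library the factors themselves varied along insulin: Nkx6-1 took 18.7% of the 10 factors' UMIs at 5000 or more, 14.8% at 2500 to 5000, 8.97% at 1000 to 2500 and 5.25% at 100 to 1000, and Pdx1 10.7%, 9.44%, 7.50% and 3.72%. Rfx6 ran the opposite way, with 10.1% in the highest range and 30.6% in the lowest. These control ranges differed in depth too, with a median of 9271 UMIs in the lowest and 55376 in the highest. In the range of 1000 to 2500, 84.1% of control barcodes had 6000 or more genes. The part of depth in these shares was not tested.

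Within each of the upper 3 ranges, the differences between libraries were smaller for Pdx1 and Nkx6-1 than over the whole class. Relative to the median gene of the range, Nkx6-1 lay at -0.75 (-0.84 to -0.67) at 5000 or more, at -0.61 (-0.65 to -0.56) at 2500 to 5000 and at -0.03 (-0.14 to 0.08) at 1000 to 2500. Pdx1 lay at -0.51 (-0.62 to -0.41), -0.48 (-0.54 to -0.42) and -0.23 (-0.36 to -0.11). For Pdx1 each of these is under 1.5-fold, against -0.79 over the whole class. Neurod1 lay above the median gene in each, at 0.38 (0.30 to 0.45), 0.75 (0.71 to 0.79) and 1.02 (0.92 to 1.12), the first of these within 1.5-fold. Of factors within 1.5-fold over the whole class, Rfx6 lay at -0.48, -0.88 and -0.60 in these ranges, Isl1 at -0.45, -0.45 and -0.75, and Mnx1 at -0.18, -0.16 and 0.86. Over all genes, 4.98% to 11.1% lay 1.5-fold or more higher and 3.58% to 9.83% lower in these 3 ranges.

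In the lowest range, 100 to 1000, 7 of the 10 factors were past 1.5-fold higher, where 19.6% of genes were higher and 21.3% lower. They were Mnx1 (2.48), Neurod1 (2.14), Insm1 (1.83), Foxa2 (1.75), Pdx1 (1.38), Nkx6-1 (1.35) and Pax6 (0.81). Of these, Mnx1 had 8 UMIs in the control library and 252 in the other, with an interval of 1.48 to 3.71. It reached 10 CPM only in the library labelled TBL/RβKO, and was tested only through that library in this range. There the barcodes were not alike in depth, with medians of 9271 UMIs and 3229 genes in the control library and 54089 UMIs and 7291 genes in the other, and insulin in barcodes with non-endocrine markers had a median of 85.7 UMIs per 10000 in the control library and 14.6 in the other. The part of free RNA and of depth in this range was not tested.

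**Figure D4:**
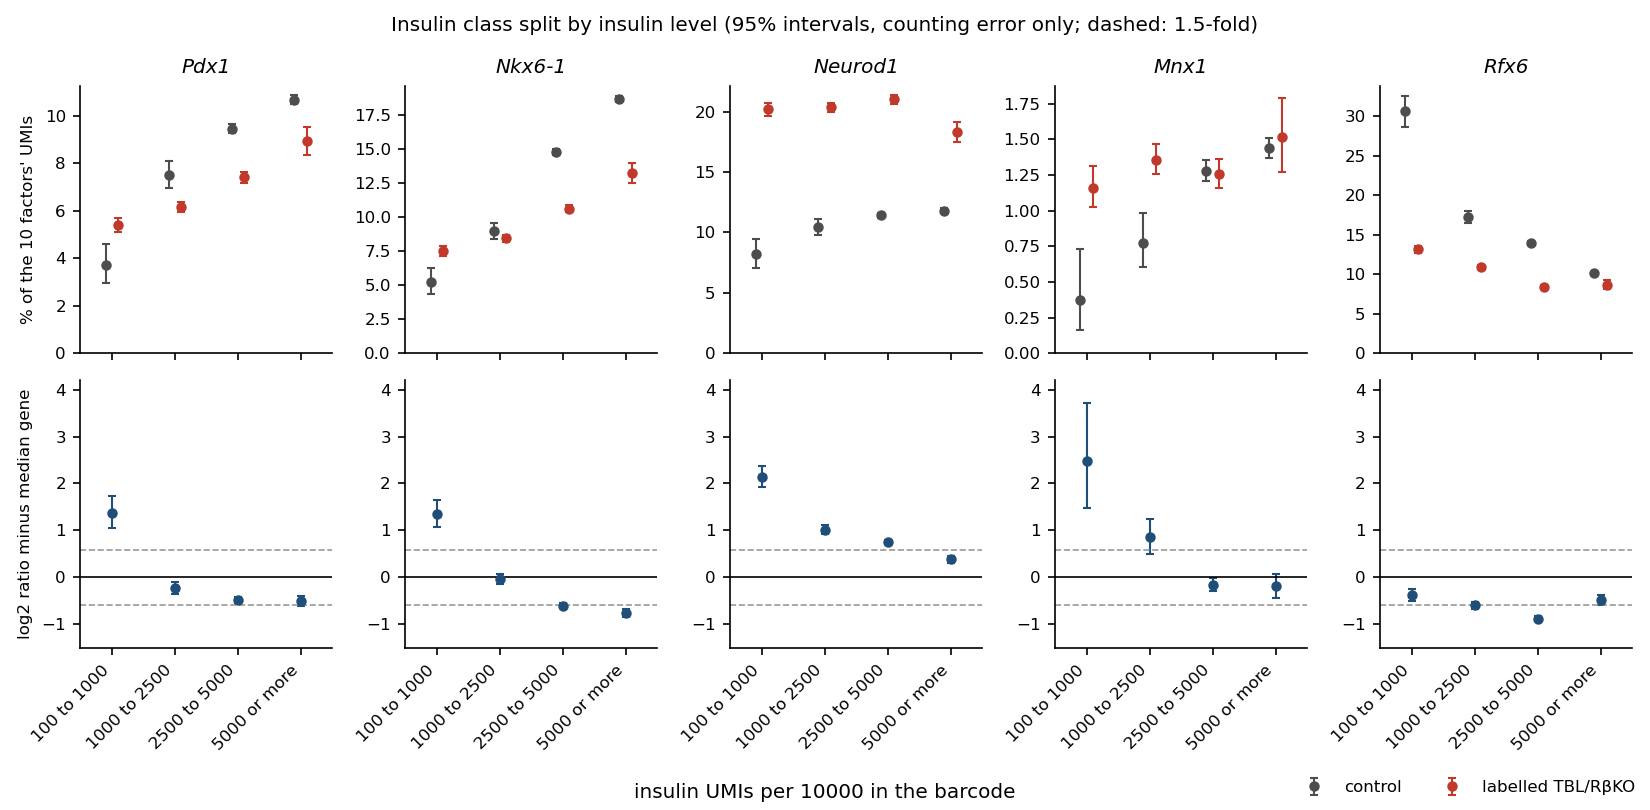
Insulin-class barcodes in 4 ranges of insulin UMIs per 10000. Upper row, percent of the 10 factors' UMIs taken by each of 5 factors in the control library (grey) and the library labelled TBL/RβKO (red). Lower row, log2 ratio minus that of the median gene of the range, with 1.5-fold dashed. Bars are 95% counting intervals. Over the 4 ranges Neurod1 takes at least 18.3% in the library labelled TBL/RβKO and at most 11.8% in the control library, while Pdx1 and Nkx6-1 climb with insulin in both.

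A second hormone marked many more insulin-class barcodes of the library labelled TBL/RβKO, and PP markers summed to 7596 CPM in the control class and 52960 CPM in the other. Doublets cannot be told apart from cells with 2 hormones here. Among barcodes with insulin alone (2409 and 525), Pdx1 stood at 117 and 86.0 CPM, Nkx6-1 at 199 and 126 CPM and Neurod1 at 132 and 231 CPM, which is -0.66 (-0.72 to -0.61), -0.88 (-0.92 to -0.83) and 0.59 (0.55 to 0.63) relative to the median gene. In barcodes with insulin and polypeptide (41 and 404) they lay at -0.69, -0.75 and 0.71, and in those with insulin and glucagon (173 and 62) at -0.59, -0.85 and 0.77. The directions of the 3 factors were alike with and without a second hormone. With 2 or more other hormones (156 and 299 barcodes), Pdx1 and Nkx6-1 were nearer the median gene, at -0.39 and -0.50. Markers of other cells also differed in the insulin class: 10 macrophage markers summed to 146 and 51.8 CPM and 8 stromal markers to 23.6 and 80.8 CPM, none of them at 0. With barcodes that held non-endocrine markers left out, Pdx1 and Nkx6-1 were still lower and Neurod1 higher.

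Cre UMIs were found in 274 of the 1338 insulin-class barcodes of the library labelled TBL/RβKO. These were deeper, with a median of 81403 UMIs against 64693 in the 1064 without. Pdx1 stood at 89.1 CPM (85.3 to 92.9) with a Cre UMI and at 78.8 CPM (76.9 to 80.9) without, and Neurod1 at 266 CPM (259 to 272) and 243 CPM (240 to 247). Nkx6-1 stood at 113 CPM with a Cre UMI and 115 CPM without, and without hormone and mitochondrial UMIs at 186 and 174 CPM, so its direction depends on the scaling. Both sets lay on the same side of the control insulin class (114, 132 and 189 CPM for Pdx1, Neurod1 and Nkx6-1). A barcode without a Cre UMI is not shown to lack Cre, since few transcripts of a low gene are captured.

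The polypeptide class also differed between the libraries. Of 9 factors tested, 1 was higher, Neurod1, and 0 were lower, where 9.2% of 8285 genes were higher and 5.14% lower. Neurod1 stood at 88.8 CPM (83.4 to 94.5) in the control library and at 219 CPM (212 to 225) in the other, 1.05 (0.95 to 1.15) relative to the median gene. The directions of Pdx1 (33.8 and 52.2 CPM, 0.38) and Nkx6-1 (61.3 and 85.7 CPM, 0.23) were opposite to those in the insulin class, and Isl1 lay at -0.48 (212 and 180 CPM), all within 1.5-fold. These values mix unlike barcodes. Nkx6-1 lay at 0.07 (-0.14 to 0.28) with no other hormone, 0.02 with insulin, -0.51 with glucagon, -0.89 with somatostatin and 1.11 with 2 or more others, and Pdx1 at 0.44, 0.05, -0.09, 0.07 and -0.12. The Pdx1 intervals held 0 except with no other hormone (0.07 to 0.82).

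Mnx1 was under the limit of 10 CPM in the polypeptide class but had the widest gap of the 10 factors there. It had 8 UMIs in 259 control barcodes and 151 UMIs in 495 barcodes of the library labelled TBL/RβKO, or 0.721 CPM (0.311 to 1.42) and 7.20 CPM (6.10 to 8.44), which is 3.07 (2.05 to 4.31) above the median gene on the log2 scale. At 5000 UMIs per barcode it was found in 0.386% (0.00977 to 2.13) and 2.63% (1.41 to 4.45) of barcodes, where barcodes with non-endocrine markers gave 0.585% and 0%, the latter allowing up to 1.06%. In marker barcodes of no hormone class it was found in 0 of 94 and 0 of 252. In the library labelled TBL/RβKO most of the Mnx1 UMIs came from barcodes with other hormones. Among polypeptide-class barcodes with insulin as the other hormone it stood at 3.48 CPM (5 UMIs) and 14.2 CPM (69 UMIs), among those with 2 or more others at 0.756 CPM (1 UMI) and 11.8 CPM (59 UMIs), and among those with no other hormone at 0 UMIs in 113 control barcodes, which allows up to 0.611 CPM, and at 2.41 CPM (17 UMIs) in 210 barcodes.

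Neurod1 was higher with no other hormone too, at 77.8 CPM in the control library and 147 CPM in the library labelled TBL/RβKO (0.72, interval 0.55 to 0.89). There 6.63% of genes were higher and 3.22% lower. Among barcodes with insulin (39 and 97) Neurod1 stood at 79.2 and 311 CPM (1.42, interval 1.14 to 1.70). In these, however, 22.8% of genes were higher and 22.4% lower. The polypeptide classes were not alike in other respects: the median insulin level was 71.4 UMIs per 10000 in the control library and 20.0 in the other, and 8 stromal markers summed to 6.13 CPM, with 4 of them at 0, and to 132 CPM, with 0 at 0. The part of these in the values of Neurod1 and Mnx1 was not tested.

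The glucagon and somatostatin classes showed smaller differences. In the glucagon class 0 of 9 factors tested were past 1.5-fold, where 1.61% of 8795 genes were higher and 0.466% lower. Values relative to the median gene ran from -0.22 (-0.27 to -0.17) for Isl1, at 213 CPM in the control library, to 0.19 for Pdx1 (11.4 and 13.9 CPM), with Neurod1 at 0.16 (237 and 284 CPM) and Pax6 at 0.16 (199 and 240 CPM). In the somatostatin class also 0 of 9 were past it, where 2.25% of 8993 genes were higher and 1.57% lower. Nkx6-1 was nearest, with 173 and 232 UMIs and 32.3 and 22.4 CPM, at -0.55 (-0.84 to -0.26). It was past 1.5-fold in several other settings, at -2.25 with barcodes of 6000 or more genes left out and at -1.34 with those holding a second hormone left out, so its call depends on which barcodes enter.

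Barcodes with no hormone at 100 UMIs per 10000 were of 2 kinds. Those with non-endocrine markers (94 and 252) held the factors at 0.702 to 7.72 CPM in the control library and 0.310 to 6.51 CPM in the other. Without such markers there were 10 control barcodes (median 18754 UMIs) and 174 others (median 14324 UMIs). Ductal markers did not enter this split. Over all barcodes with no hormone, 6 of them summed to 53.2 CPM in the control library and 1212 CPM in the other. In the 174, Rfx6 stood at 229 CPM (214 to 246), Pax6 at 125 CPM (114 to 137), Nkx2-2 and Isl1 at 80.7 CPM each, Neurod1 at 65.9 CPM (57.8 to 75.0), Nkx6-1 at 34.5 CPM and Pdx1 at 13.0 CPM. Rfx6 took 33.9% of the 10 factors' UMIs there. In the same library it took 10.2% in the insulin, 19.8% in the glucagon, 20.6% in the somatostatin and 12.4% in the polypeptide class. The 10 control barcodes held 29 Rfx6 UMIs, 114 CPM (76.6 to 164). Insulin in barcodes with non-endocrine markers had a median of 85.7 UMIs per 10000 in the control library and 14.6 in the other. The limit of 100 may therefore not set apart like barcodes in the 2 libraries. In 163 control insulin-class barcodes with 100 to 1000 insulin UMIs per 10000, Rfx6 took 30.6% of the 10 factors' UMIs. How far these resemble the 174 was not tested.

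Other transcription factors of the islet and known targets of the 10 factors were read from 2 lists in the insulin class, where their counts stand beside the 9.16% of genes higher and 5.39% lower. Of 32 other islet transcription factors 17 reached 10 CPM, and of these 5 were higher and 1 lower, with a median of 0.17 relative to the median gene. Of the 16 that reached 10 CPM in both libraries, 4 were higher and 1 lower. Neurog3, the progenitor factor, went from 3.66 to 23.5 CPM (2.37) and was tested only through its level in the library labelled TBL/RβKO. The others were Glis3, an activator of insulin, from 137 to 405 CPM (1.26), Etv1 from 43.5 to 106 CPM (0.98), Sox4 from 31.1 to 63.5 CPM (0.72) and Foxo1 from 61.7 to 120 CPM (0.65). The lower gene was Mafa, a late β-cell activator of insulin, which went from 463 to 85.5 CPM (-2.75), which is also in the list of targets.

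Of 24 targets 23 were tested, with 3 higher and 10 lower and a median of -0.49. Ins1 and Ins2, which place a barcode in the class, are among these, and without them 3 of 21 were higher and 8 lower, with a median of -0.23. Of the 22 targets that reached 10 CPM in both libraries, 3 were higher and 9 lower, with a median of -0.36. The lower ones with the widest gaps were Slc2a2, the glucose transporter of mouse β-cells, from 316 to 55.3 CPM (-2.82), Mafa, Nnat from 19.2 to 4.03 CPM (-2.56, tested only through its control level), Ins1 from 136461 to 35988 CPM (-2.23) and Slc30a8, the zinc transporter of insulin granules, from 607 to 180 CPM (-2.06). Ero1b, an oxidase of the endoplasmic reticulum that serves proinsulin folding, followed from 813 to 348 CPM (-1.53). Ttr, known from α-cells, was higher from 487 to 1748 CPM (1.53), as was Chga, a granule protein, from 5144 to 12428 CPM (0.97).

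**Figure D5:**
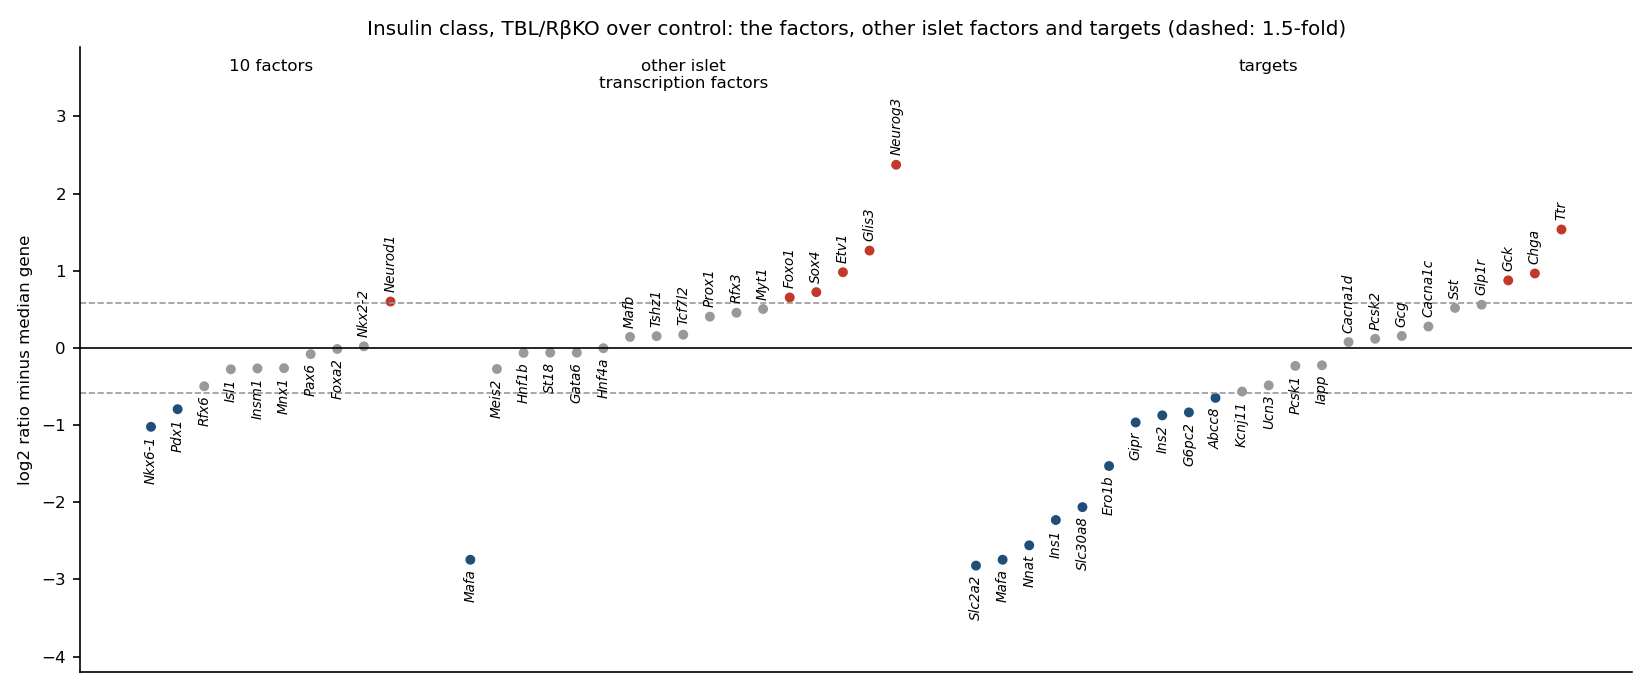
Log2 ratio of CPM in the insulin class, the library labelled TBL/RβKO over the control library, minus that of the median gene, for the tested genes among the 10 factors and both lists, sorted by value. Red points lie 1.5-fold or more above and blue points 1.5-fold or more below the median gene (dashed lines). The 10 factors run from -1.02 to 0.60, and the targets from -2.82 to 1.53.

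Genes with profiles most like a factor were ranked by Pearson's r of log2(CPM + 1) over the 8 sums (4 classes in 2 libraries) among 4380 genes at 50 CPM or more in at least 1 sum. The sums share libraries, and this CPM includes hormone UMIs, on which the class order of several factors depends. So r is a description, and it was not computed without hormones. Pdx1 was most like Atf5 (r = 0.984) and Iapp (0.970), Mnx1 like Pde5a (0.982) and Ucn3 (0.971), Nkx6-1 like Gjd2 (0.927), Neurod1 like Ang (0.996) and Isl1 like Dynll1 (0.995). Pax6 was most like Esrrg (0.984), Foxa2 like Nrip1 (0.984), Rfx6 like Lrp8 (0.993), Insm1 like Cebpb (0.984) and Nkx2-2 like Gfpt1 (0.930). Among the factors themselves the closest pair was Pdx1 and Insm1 (0.880), and the most opposed pair Nkx6-1 and Foxa2 (-0.849).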

How the data were processed

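Islets from 4 mice per group were profiled with Chromium 3′ v3.1 chemistry, 1 library per group. The deposited values are raw UMI counts per gene and barcode, as output by the authors' Cell Ranger run (version 7.1.0). GRCm39 and mm39 are named in the submitters' processing notes. The study kept barcodes with more than 2500 and fewer than 6000 genes and under 10% mitochondrial reads. Here the upper limit was an alternative only, and cells were not used as replicates, so no test was run. Counts were summed by library and hormone class and scaled to CPM, with exact 95% intervals (Poisson for CPM, Clopper-Pearson for shares and ratios) that cover counting error only. A gene was called at 1.5-fold from the median of genes at 10 CPM or more (mean of both libraries). A count of 0 allows up to 3 counts. Scrublet's automatic threshold marked 84 and 1 barcodes, so the highest scores were taken in an alternative, at 0.8% per 1000 barcodes; doublets were otherwise kept. Non-endocrine barcodes had 20 or more UMIs per 10000 of a marker list.

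The factors and lists were chosen with earlier results of these data known, and the ratios within insulin ranges and by second hormone, the class order without hormones and the counts of lists with genes left out were added after values had been seen. Named were all 10 factors, at most 8 genes by size per list past 1.5-fold in the insulin class, and genes most like a factor. The result of a list of partner proteins is not reported here. The calls were tried on simulated UMI sums that held counting error only, with changes larger than the 1.5-fold limit. That simulation held no spread between libraries and no change at the limit, so it does not check calls such as Neurod1 in the insulin class. Python 3.11.15, numpy 2.4.6, scipy 1.17.1, pandas 2.3.3, scanpy 1.11.5 and matplotlib 3.10.9 were used.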

Additional observations from a re-analysis of the deposited data

Results flagged for a closer look

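Pdx1 and Nkx6-1 had opposite directions in the insulin and the polypeptide class taken whole. The log2 ratio relative to the median gene was lower in the insulin class by a difference of -1.17 for Pdx1 (-0.79 against 0.38) and -1.25 for Nkx6-1 (-1.02 against 0.23). With 1 library per group these differences between classes were not tested. Within the polypeptide class the direction of Nkx6-1 varied with the other hormones of a barcode. It lay at -0.89 (-1.32 to -0.45) with somatostatin (27 and 49 barcodes), where 9.17% of genes were higher and 8.20% lower. With 2 or more others (35 and 67 barcodes) it lay at 1.11 (0.72 to 1.53), where 14.4% were higher and 10.5% lower. Pdx1 ran from -0.12 to 0.44, and its intervals held 0 except with no other hormone (0.44, interval 0.07 to 0.82).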

How the results depend on the processing

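Over 12 settings in the insulin class Pdx1 ran from -0.88 to -0.66 and Nkx6-1 from -1.11 to -0.88, lower in all 12, and Neurod1 from 0.52 to 0.78, higher in 11, the exception being 0.52 when the median was taken over genes at 50 CPM or more. In the polypeptide class Neurod1 ran from 0.72 to 1.07, higher in all 12. With genes at 1 CPM or more, the number of factors past 1.5-fold became 1 in the glucagon, 2 in the polypeptide and 1 in the somatostatin class. Of all genes, 3.63%, 11.6% and 5.87% were higher there and 2.26%, 8.38% and 5.47% lower. The factor added was Mnx1, at 0.729, 0.721 and 0.746 CPM in the control library, which entered only through the other library. Without barcodes holding a second hormone, the number became 2 in the polypeptide class (6.63% of genes higher, 3.22% lower). In the somatostatin class it became 2 (7.71% and 6.39%), from 37 and 124 barcodes. It was 1 there with fewer than 6000 genes (1.97% and 2.05%) or a hormone level of 500 per 10000 (1.89% and 1.42%). With the mean of CPM per barcode it was also 1 (1.72% and 1.42%). Without second-hormone barcodes Rfx6 reached -0.59 in the insulin class and 0.84 in the polypeptide class. The thinned shares reversed, in percentage points, with fewer than 6000 genes for Foxa2 (-0.0745), Nkx2-2 (-4.85) and Pax6 (-0.759), and at 3000 UMIs without hormones for Foxa2 (-4.01), Nkx2-2 (-4.63) and Pax6 (-5.54). Isl1, Insm1 and Mnx1, whose differences were within counting error, turned negative in several settings and reached -9.72, -8.72 and -1.87 at 3000 UMIs; the cause was not tested. No paired analysis was possible because each group has 1 library, and for the same reason no library could be left out. Low counts limit Mnx1 outside the insulin class.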
